A study of Drosophila melanogaster with 4 samples.

Results

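Glutathione S-transferases (GSTs) are the enzymes that join the tripeptide glutathione to reactive or lipophilic molecules so that these can be cleared, and several of them also reduce lipid peroxides. In flies the Delta and Epsilon classes make up most of the family and lie in clusters of related gene copies, while the Omega, Sigma, Theta and Zeta classes have counterparts in mammals. The substrate, glutathione, is made in a pair of steps by glutamate-cysteine ligase (catalytic subunit Gclc, modifier subunit Gclm) and glutathione synthetase (Gss1, Gss2). In the fly many GST genes are targets of the stress-activated transcription factor CncC, the relative of mammalian Nrf2.

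The genes were taken by name from a table of 13926 genes: every Gst gene of a lettered class, the microsomal transferase gene Mgstl, and Gclc, Gclm, Gss1 and Gss2. This gave 40 genes, namely 11 Delta, 14 Epsilon, 3 Omega, 1 Sigma, 4 Theta and 2 Zeta genes, Mgstl and 4 synthesis genes. Gss1 and Gss2 stand in the table under the older names GSS and CG32495. None of the 40 was listed at 0 and all 40 had enough counts to be tested, so no gene entered or left through a filter on low counts.

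RNA came from pooled heads of male flies at day 50 of adult life, with 2 NelfA*/+ libraries and 2 libraries of +/+ control siblings. NelfA*/+ flies carry the P-element allele KG09483 in one copy of Nelf-A, which encodes a subunit of the complex that pauses RNA polymerase II. The line had been backcrossed repeatedly to w1118, so both genotypes share that background. Every library is a pool of heads, and the pools do not separate fewer cells of a type from less RNA per cell.

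Counts on genes came to between 42985746 and 45172099 per library. Nelf-A itself (FBgn0038872) had 2386 and 2398 normalized counts in NelfA*/+ heads, against 3598 and 3365 in +/+ heads, in the direction of the labels (log2 fold change -0.54 ± 0.07 SE, edgeR adjusted p = 0.0411). Its adjusted p was 0.166 without +/+ replicate 1 and 0.0852 without +/+ replicate 2, with log2 fold changes of -0.50 and -0.59 by edgeR. Normalized counts here are raw counts scaled to the average library after TMM normalization. Head markers were present: ninaE, trp, norpA and inaD of photoreceptors and nSyb, Syt1 and brp of neurons had high counts in all libraries. The glial marker repo had 2449 and 2596 normalized counts in NelfA*/+ heads and 2446 and 2568 in +/+ heads. The pan-neuronal marker elav, whose span is overlapped for 98.57% by arg and lncRNA:enrr together, had at most 7.96 normalized counts. Arr2 of photoreceptors and moody and alrm of glia, which lie wholly inside other genes, are listed at 0. Markers of the digestive tract stood apart between the libraries. Leaving out the amylase genes, the summed normalized counts of 26 gut markers were 25857 and 3333 in the NelfA*/+ replicates and 115.3 and 135.4 in the +/+ replicates, and 5 of the 26 were at 0 in all libraries. The amylase genes went the other way: Amy-d fell (log2 fold change -0.99, edgeR adjusted p = 0.0362) and Amy-p had a log2 fold change of -0.38, so that the full list of 28 gut markers overlapped, with sums of 50911 and 30044 in NelfA*/+ heads and 45210 and 37825 in +/+ heads. Both NelfA*/+ libraries lay above both +/+ libraries for 11 of the 26 gut markers. Only 10 of the 26 had enough counts to test, so the 11 include genes that were not tested. The same order held for all 4 Malpighian tubule markers, where 26.1% of all genes tested lay above. The tubule markers summed to 3830 and 1368 in NelfA*/+ heads and 809.3 and 770.0 in +/+ heads. The Malpighian tubule marker Smvt had 1696 and 323.1 normalized counts in NelfA*/+ heads and none in +/+ heads. Of 4 fat body markers, 3 (Lsp2, to and Cyp6g1) were lower in both NelfA*/+ libraries than in either +/+ library. Over all genes tested, 26% were lower in this way. The summed fat body list overlapped (226190 and 240884, against 287645 and 230033), and its part in the results was not tested. The main test compares the genotypes across 9609 genes with edgeR's quasi-likelihood F test, and its p-values are adjusted over all of these genes by the Benjamini-Hochberg method. DESeq2 and limma-voom values are named as such, and DESeq2 gave an adjusted p to 10144 genes. The replicates are described only as biological, and p-values rest on 2 pools per genotype.

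Per length of transcript, a few enzymes carried most of the transferase RNA in these heads. Levels are given as counts scaled to a fixed library total (CPM) per kb of annotated exon, which allows genes to be compared. GstD1, the Delta enzyme best known for detoxifying DDT, was highest, with 774.5 CPM per kb in NelfA*/+ heads and 706.2 in +/+ heads. GstE12 followed at 244.3 and 268.5 CPM per kb, GstE1 at 232.5 and 138.1, GstE9 at 145.2 and 172.8, GstE3 at 168.4 and 108.3, and the membrane-bound Mgstl at 150.9 and 154.4, in each case NelfA*/+ heads before +/+ heads. Among the transferases GstD4, GstD5, GstD6, GstD7 and GstE10 stood below 2 CPM per kb in every library, with raw counts between 2 and 96, so that their ratios carry little information.

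**Figure D1:**
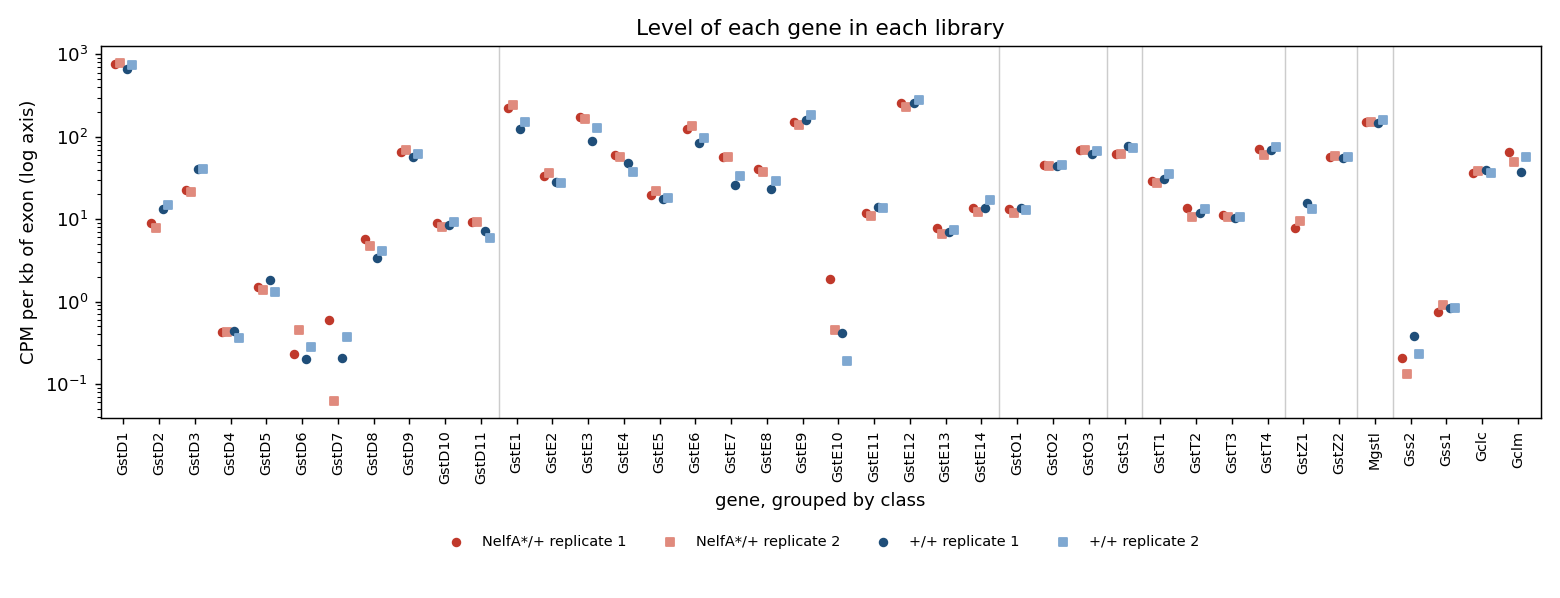
Level of each of the 40 genes in each library, in CPM per kb of exon on a log axis; red points are the NelfA*/+ libraries and blue points the +/+ libraries, with circles for replicate 1 and squares for replicate 2. GstD1 is the highest at 774.5 CPM per kb in NelfA*/+ heads and 706.2 in +/+ heads, and for most genes the points of both genotypes lie close together compared with the spread between genes.

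By class, Epsilon transcripts made up 45.5% and 44.6% of the summed CPM per kb of all transferase genes in the NelfA*/+ libraries, against 40.2% and 41.3% in the +/+ libraries. Delta transcripts made up 34.1% and 35.4% in NelfA*/+ heads and 35.7% and 35.9% in +/+ heads, and GstD1 alone accounted for 29.3% and 30.7%, against 29.8% and 30.3%. The Epsilon share was thus higher in both NelfA*/+ libraries than in either +/+ library, and the Delta share lower. The summed Delta level itself was not lower, at 882.5 and 913.2 CPM per kb in NelfA*/+ heads and 797.1 and 885.5 in +/+ heads.

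Across all 40 genes there was no common shift. The log2 fold change (NelfA*/+ over +/+) was above 0 for 22 genes and below 0 for 18, and its median was 0.028, beside 0.011 over all genes tested. By edgeR, 1 of the 40 rose and 1 fell at the 0.05 threshold for adjusted p, where 0.645% of all genes tested rose and 1.23% fell. The unadjusted edgeR p was under 0.05 for 9 higher and 6 lower members, where 9.6% and 10.7% of all genes tested were. DESeq2 called 7 of the 40 higher and 4 lower, where 4.16% and 4.82% of the genes to which it gave an adjusted p were called. In 14 genes both NelfA*/+ libraries lay above both +/+ libraries, and in 9 both lay below, where 26.1% and 26% of all genes tested did so. The members are described by class below, and whether the differences sit in particular classes or places was not tested.

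**Figure D2:**
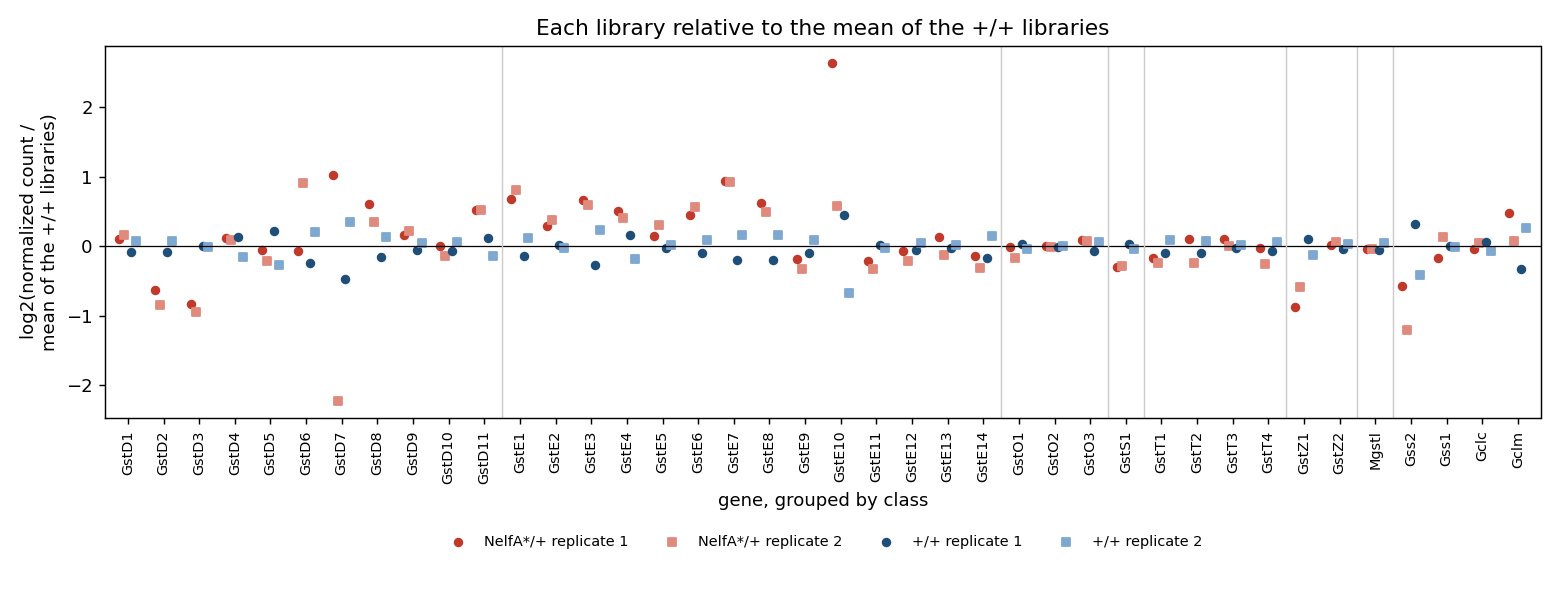
Normalized count of each library divided by the mean of the +/+ libraries, on the log2 scale, for each of the 40 genes; red points are NelfA*/+ libraries, blue points +/+ libraries, circles replicate 1 and squares replicate 2. GstE1 to GstE8 have both red points above both blue points, GstD2, GstD3 and GstZ1 have both below, and GstD7 and GstE10 show the widest gap between the NelfA*/+ replicates.

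Of the 14 genes with both NelfA*/+ libraries above both +/+ libraries, 9 were of the Epsilon class, 4 of the Delta class and 1 of the Omega class. Epsilon GSTs are an insect-specific class, several of which are known for conjugating aldehydes from lipid peroxidation and for insecticide resistance. Its median log2 fold change was 0.40 over 14 genes, with 10 above 0, where 5021 of all 9609 genes tested were above 0. Of these genes 10 lie in a single cluster on chromosome arm 2R (18396638 to 18409835 in the BDGP6 assembly, 13.2 kb), and the remaining 4, GstE11 to GstE14, lie elsewhere on the arm. Within the cluster 9 genes had both NelfA*/+ libraries above both +/+ libraries and 1, GstE9, had both below, where 26.1% and 26% of all genes tested did so. One of the 9 is GstE10, which had few counts. The median log2 fold change was 0.54 in the cluster and -0.18 over the 4 genes outside it, whose values ran from -0.27 to 0.011. The difference between both groups of Epsilon genes was not tested.

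GstE7 (FBgn0063493; 2R, 18406924 to 18407688, forward strand) rose most clearly. It had 1960 and 1943 normalized counts in NelfA*/+ heads, against 891.5 and 1145 in +/+ heads. The NelfA*/+ libraries nearly coincided while the +/+ libraries differed, and the genotypes did not overlap. The mean in NelfA*/+ heads was 192% of that in +/+ heads (1951 ± 12.0 against 1018 ± 179.5, SD, n = 2 each), which is 0.94 ± 0.13 SE as a log2 fold change (edgeR adjusted p = 0.0486). This call is close to the threshold: without +/+ replicate 1 the log2 fold change was 0.77 and edgeR's adjusted p 0.0958, and limma-voom gave 0.0515.

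GstE1 (FBgn0034335), the most abundant gene of the cluster per length over all 4 libraries, although GstE9 was above it in +/+ heads, had 8223 and 8988 normalized counts in NelfA*/+ heads and 4665 and 5558 in +/+ heads. Its log2 fold change was 0.75 ± 0.11 SE. The edgeR adjusted p of 0.0515 missed the threshold, and the DESeq2 adjusted p was 9.86e-07. GstE6 had 4167 and 4491 normalized counts in NelfA*/+ heads, against 2839 and 3228 in +/+ heads (log2 fold change 0.51, edgeR adjusted p = 0.0724, DESeq2 adjusted p = 0.000544). For both genes every NelfA*/+ library was above every +/+ library by more than the distance between replicates.

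GstE3 had 5811 and 5517 normalized counts in NelfA*/+ heads and 3014 and 4271 in +/+ heads, and GstE8 had 2013 and 1846, against 1146 and 1466. For these genes most of the spread came from the +/+ pools, of which replicate 2 was the higher. GstE4, which had 2271 and 2112 normalized counts in NelfA*/+ heads and 1774 and 1408 in +/+ heads, showed the opposite order of the +/+ replicates. GstE2 had 1339 and 1425 in NelfA*/+ heads, against 1109 and 1077 in +/+ heads. The log2 fold changes of GstE2, GstE3, GstE4 and GstE8 lay between 0.34 and 0.64, with edgeR adjusted p between 0.0947 and 0.149 and DESeq2 adjusted p between 0.0110 and 0.0449. GstE5 was the least different of the neighbours, with 647.9 and 722.4 normalized counts in NelfA*/+ heads and 574.6 and 595.3 in +/+ heads (log2 fold change 0.23, edgeR adjusted p = 0.256). Taken by position as a run that was picked out after the values were seen, GstE1 to GstE8 summed to 26431 and 27045 normalized counts in NelfA*/+ heads, against 16014 and 18748 in +/+ heads.

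On one side the run ended at GstE9. On the other it met GstE10, which also had both NelfA*/+ libraries above both +/+ libraries but few counts. GstE9, which follows GstE8 on the same strand and overlaps imd on the opposite strand by 5.08% of its exon length, had 5357 and 4832 normalized counts in NelfA*/+ heads and 5685 and 6443 in +/+ heads (log2 fold change -0.25, edgeR adjusted p = 0.236). The 6 tested genes nearest to the cluster, 3 on each side, had log2 fold changes between -0.80 and -0.0076, all below 0, and the lowest of them was Idgf5 (-0.80, edgeR adjusted p = 0.0177). GstE10 lies at the other end on the reverse strand and overlaps the start of GstE1. It had 96 and 22 raw counts in NelfA*/+ heads and 21 and 10 in +/+ heads, a log2 fold change of 1.95 with a standard error of 0.80 (edgeR adjusted p = 0.270). Nearly all of this difference came from NelfA*/+ replicate 1: without it the log2 fold change was 0.59, and without NelfA*/+ replicate 2 it was 2.64 (edgeR adjusted p = 0.0245).

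NelfA*/+ replicate 1 is also the library with the most RNA of digestive tract markers, and several Epsilon genes are known to be expressed in the gut and the Malpighian tubules. Leaving out the amylase genes, the summed gut markers were 7.76 times as high in NelfA*/+ replicate 1 as in replicate 2. The sum over GstE1 to GstE8 was 26431 in replicate 1 and 27045 in replicate 2. Leaving out NelfA*/+ replicate 1, the log2 fold changes were 0.93 for GstE7 (edgeR adjusted p = 0.0135), 0.81 for GstE1 (0.0274) and 0.57 for GstE6 (0.0521). NelfA*/+ replicate 2, which remains in that fit, still had more gut marker RNA than the +/+ libraries (3333, against 115.3 and 135.4, without the amylase genes). With the amylase genes its sum was the lower, at 30044 against 45210 and 37825 in the +/+ libraries. For GstE10 the order of the libraries followed the gut markers within the NelfA*/+ genotype. The part of digestive tract RNA in the differences of the Epsilon genes was not tested.

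**Figure D3:**
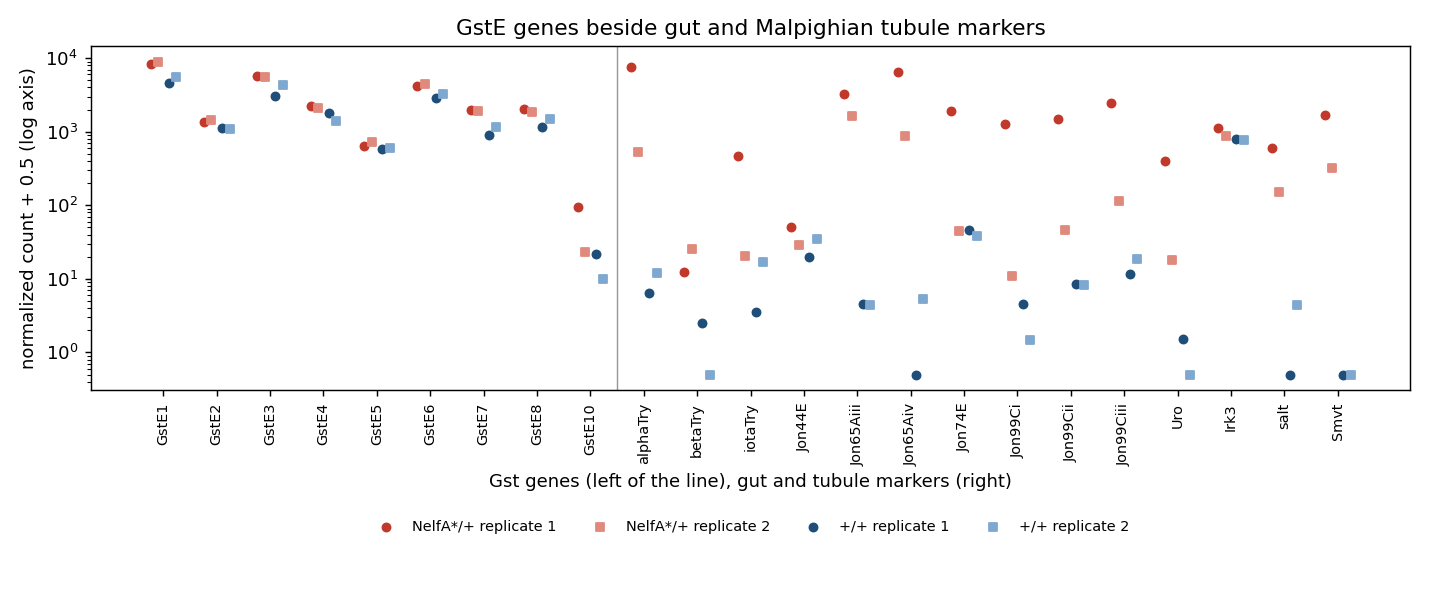
Normalized counts plus 0.5 on a log axis in each library for GstE1 to GstE8 and GstE10, left of the line, and for tested gut and Malpighian tubule markers other than the amylase genes, right of it; red is NelfA*/+, blue is +/+, circles are replicate 1 and squares replicate 2. Most markers are far higher in NelfA*/+ replicate 1 than in replicate 2. For GstE1 to GstE8 these libraries lie close together (sums of 26431 and 27045 normalized counts, against 16014 and 18748 in +/+). The 26 gut markers other than amylase summed to 25857 and 3333 in NelfA*/+ and 115.3 and 135.4 in +/+. With the amylase genes the sums overlapped between the genotypes.

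Epsilon genes outside the cluster showed small differences. GstE12, the most abundant of the class per length, had 16009 and 14415 normalized counts in NelfA*/+ heads and 16066 and 17370 in +/+ heads (log2 fold change -0.14, edgeR adjusted p = 0.504). The genotypes were separated only by the narrow gap between 16009 and 16066. GstE14, known as Noppera-bo and required for making the moulting hormone ecdysone, had 620.0 and 547.8 in NelfA*/+ heads, against 607.7 and 757.5 in +/+ heads, which overlapped (log2 fold change -0.23). GstE11 had 499.6 and 462.1, against 587.7 and 571.3 (log2 fold change -0.27, edgeR adjusted p = 0.200). GstE13 had a log2 fold change of 0.011 with overlapping libraries.

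In the Delta class the clearest difference ran the other way. All 11 Delta genes lie in 1 cluster of 20.8 kb on 3R (12364776 to 12385624, BDGP6). GstD3 (FBgn0010039; 3R, 12373068 to 12373813, forward strand) fell to 760.3 and 704.7 normalized counts in NelfA*/+ heads, against 1352 and 1349 in +/+ heads. The gap between the genotypes was far larger than the distance between replicates of either. The mean was 54.2% of that in +/+ heads (732.5 ± 39.4 against 1350 ± 2.06, SD, n = 2 each), which is -0.88 ± 0.073 SE as a log2 fold change (edgeR adjusted p = 0.0175). Its log2 fold change stayed between -0.94 and -0.83 when each library was left out in turn, but edgeR's adjusted p was 0.0870 without +/+ replicate 1 and 0.0623 without +/+ replicate 2.

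GstD2, the next gene upstream on the same strand, had 296.6 and 255.1 normalized counts in NelfA*/+ heads and 433.2 and 480.1 in +/+ heads, without overlap (log2 fold change -0.73, standard error 0.13, edgeR adjusted p = 0.0724, DESeq2 adjusted p = 0.00318). GstD2 and GstD3 are close paralogs, and reads that fit both would be left out of both. The part of such reads in these values was not tested. Of the other 9 genes of the cluster, 7 had log2 fold changes above 0, where 5021 of all 9609 genes tested did. The 7 include GstD4, GstD6 and GstD7, which had few counts. GstD5 (-0.13) and GstD10 (-0.065) had values below 0 with overlapping libraries. GstD1, whose transcription is often used as a readout of CncC activity, had 28457 and 29695 normalized counts in NelfA*/+ heads, against 24958 and 28069 in +/+ heads (log2 fold change 0.13, edgeR adjusted p = 0.538). GstD9 had 2303 and 2408 in NelfA*/+ heads, against 1985 and 2134 in +/+ heads (log2 fold change 0.19, edgeR adjusted p = 0.245). Both NelfA*/+ libraries were the higher for both genes, but for GstD1 the gap between the genotypes was smaller than the distance between the +/+ replicates.

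At the far end of the cluster, GstD8 had 204.0 and 169.4 normalized counts in NelfA*/+ heads and 120.3 and 145.9 in +/+ heads, with a log2 fold change of 0.49 (edgeR adjusted p = 0.248). GstD11 had 466.7 and 467.3 in NelfA*/+ heads and 354.0 and 294.8 in +/+ heads, the largest positive log2 fold change of the class (0.53, standard error 0.13, edgeR adjusted p = 0.115, DESeq2 adjusted p = 0.0546). GstD4, GstD5, GstD6, GstD7 and GstD10 overlapped between the genotypes. GstD7 had 20 and 2 raw counts in NelfA*/+ heads, against 7 and 13 in +/+ heads, which gives no direction. The 6 tested genes around the Delta cluster had log2 fold changes between -0.30 and 0.98.

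The Delta cluster lies on the same arm as Nelf-A, with GstD3 8.85 Mb from it. The Zeta genes are 11.8 Mb and Gclm 1.46 Mb from Nelf-A. Of the genes tested on 3R, 2.79% were called in edgeR's test, against 1.87% of all genes tested. An effect of the NelfA* allele and one of sequence linked to it cannot be told apart in this design.

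**Figure D4:**
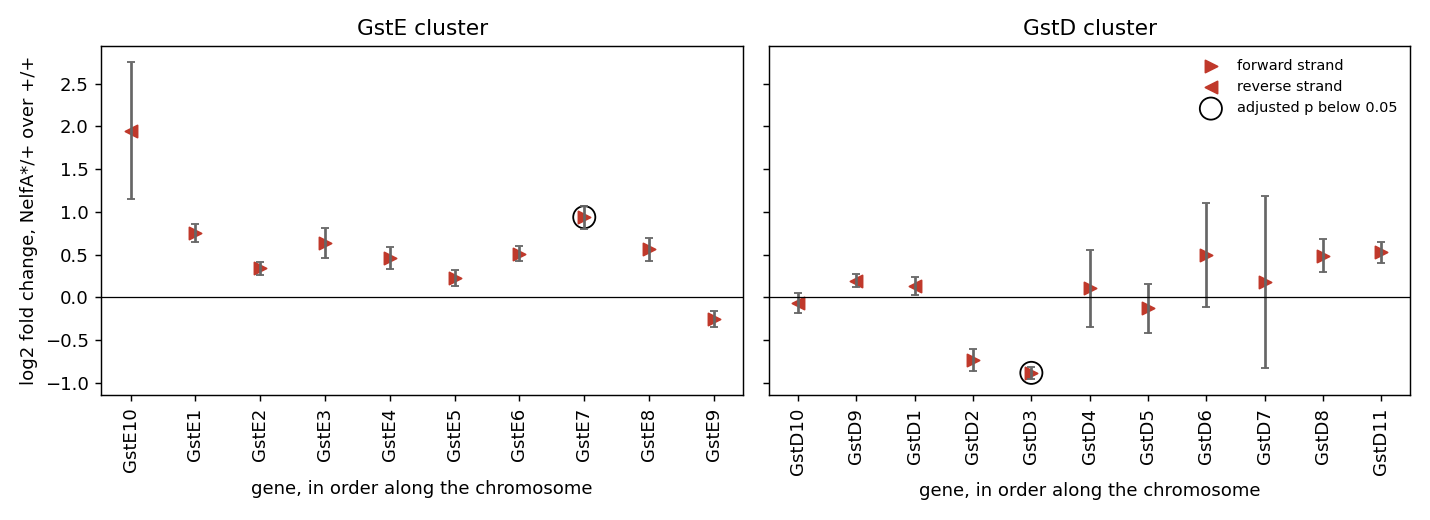
Log2 fold change (NelfA*/+ over +/+) of the genes of the Epsilon cluster and the Delta cluster in their order along the chromosome; triangles point in the direction of transcription, bars are standard errors, and circled genes have an adjusted p below 0.05 by edgeR. GstE1 to GstE8 all lie above 0 and GstE9 below, while in the Delta cluster the neighbours GstD2 (-0.73) and GstD3 (-0.88) stand below the rest.

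The Zeta enzymes catalyse a late step of tyrosine breakdown, the isomerization of maleylacetoacetate. GstZ1 (FBgn0037696; 3R, 9455517 to 9456546) had 320.5 and 391.0 normalized counts in NelfA*/+ heads, against 634.8 and 542.5 in +/+ heads. The genotypes were well apart, and the mean in NelfA*/+ heads was 60.4% of that in +/+ heads (log2 fold change -0.73, standard error 0.15, edgeR adjusted p = 0.0883, DESeq2 adjusted p = 0.00636). Its neighbour GstZ2, which was far more abundant, had 5913 and 6109 in NelfA*/+ heads and 5681 and 5967 in +/+ heads, with overlap (log2 fold change 0.046, edgeR adjusted p = 0.749).

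GstS1, the single Sigma enzyme, is abundant in flight muscle and conjugates the lipid peroxidation product 4-hydroxynonenal. It had 6260 and 6268 normalized counts in NelfA*/+ heads, against 7858 and 7445 in +/+ heads. All NelfA*/+ values lay below all +/+ values, at 81.9% of their mean (log2 fold change -0.29, standard error 0.07, edgeR adjusted p = 0.110, DESeq2 adjusted p = 0.0161). Beside it, the muscle markers Mhc, Act88F and up summed to 60661 and 62547 normalized counts in NelfA*/+ heads and 52668 and 54213 in +/+ heads, and the part of muscle RNA in the difference was not tested.

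The Omega, Theta and microsomal transferases among the 40 genes differed little. The Omega-class relative se, which overlaps GstO2, was not taken by name and had a log2 fold change of -0.61. It is described with the other glutathione genes below. The Omega genes GstO1, GstO2 and GstO3 had log2 fold changes between -0.083 and 0.082. GstO2 had 3492 and 3429 normalized counts in NelfA*/+ heads and 3430 and 3492 in +/+ heads, so the genotypes overlapped. GstO1 had 567.3 and 509.2, against 585.7 and 554.9. GstO3 had 2702 and 2682 in NelfA*/+ heads, against 2436 and 2650 in +/+ heads. The Theta genes lay between -0.21 and 0.056. GstT4, the most abundant of them, had 3834 and 3249 in NelfA*/+ heads, against 3712 and 4060 in +/+ heads, and GstT1, the lowest in fold change, had 1297 and 1235, against 1365 and 1556 (edgeR adjusted p = 0.295). GstT3, the highest in fold change, had 685.7 and 643.0, against 626.8 and 651.0. Mgstl, a membrane-bound transferase, had 7946 and 7955 normalized counts in NelfA*/+ heads and 7824 and 8444 in +/+ heads. Its log2 fold change was -0.033 with a standard error of 0.073, and an antisense RNA gene overlaps 29.2% of its exon length.

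Of the synthesis genes, Gclc, the catalytic subunit of the rate-limiting enzyme, had 7193 and 7595 normalized counts in NelfA*/+ heads and 7670 and 7033 in +/+ heads. The libraries overlapped fully (log2 fold change 0.0083, standard error 0.078, edgeR adjusted p = 0.969). Gclm, the modifier subunit, had 4372 and 3305 in NelfA*/+ heads, against 2495 and 3765 in +/+ heads. Replicates of Gclm differed more than the genotypes did, and its log2 fold change of 0.29 carried a standard error of 0.23 (edgeR adjusted p = 0.552). The value depended on single libraries, with 0.025 without +/+ replicate 1 and 0.62 without +/+ replicate 2.

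The glutathione synthetase genes Gss1 and Gss2 lie next to each other on the X chromosome and have the same annotated exon length of 2838 bases. They had few counts: Gss1 had 94 and 110 raw counts in NelfA*/+ heads and 105 and 109 in +/+ heads, and Gss2 had 26 and 16, against 48 and 30. Reads that aligned to more than 1 place made up between 6.03% and 6.84% of the reads tallied in each library, where 0% are listed as unaligned. They were not given to any gene, and reads that fit both genes of the pair are among those left out. Neither gene passed a test (log2 fold changes of -0.010 and -0.85, edgeR adjusted p of 0.987 and 0.362).

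Other genes that use, recycle or regulate glutathione were followed as a list of 31 found in the table. Of these 26 had enough counts to test, and none passed by edgeR. Its unadjusted p was under 0.05 for 2 higher and 3 lower genes, where 9.6% and 10.7% of all genes tested were. DESeq2 called 2 higher and 2 lower, where 4.16% and 4.82% of its genes were. The median log2 fold change was 0.038. The RNA of the regulators did not stand apart. The gene of CncC, cnc, had 22465 and 23224 normalized counts in NelfA*/+ heads, against 24330 and 22977 in +/+ heads. Keap1, the inhibitor of CncC, and maf-S, its partner, had log2 fold changes of -0.081 and 0.0078. These counts are per gene, and the CncC protein and its activity were not measured. The peroxidase gene PHGPx and the GST-related gfzf are listed at 0 in all libraries, and both lie wholly inside the span of another gene.

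The lowest of the list were se and Gnmt. The sepia gene se, an Omega-class relative that makes an intermediate of the red eye pigments, had 1509 and 1286 normalized counts in NelfA*/+ heads and 1893 and 2386 in +/+ heads (log2 fold change -0.61, edgeR adjusted p = 0.113, DESeq2 adjusted p = 0.00714). Gnmt, which uses up S-adenosylmethionine, had 27959 and 19358 in NelfA*/+ heads, against 34693 and 35654 in +/+ heads (log2 fold change -0.57, edgeR adjusted p = 0.198, DESeq2 adjusted p = 0.0319). The highest were Men, a malic enzyme that makes NADPH, and CG17636, of the gamma-glutamyl transpeptidase family that breaks glutathione down. Men had 36684 and 37736 normalized counts in NelfA*/+ heads, against 27188 and 31101 in +/+ heads (log2 fold change 0.35, edgeR adjusted p = 0.177, DESeq2 adjusted p = 0.0148). CG17636 had 189 and 17 raw counts in NelfA*/+ heads and 9 and 3 in +/+ heads, with the same order of the NelfA*/+ replicates as the gut markers (log2 fold change 4.10, edgeR adjusted p = 0.185, DESeq2 adjusted p = 0.00514).

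**Figure D5:**
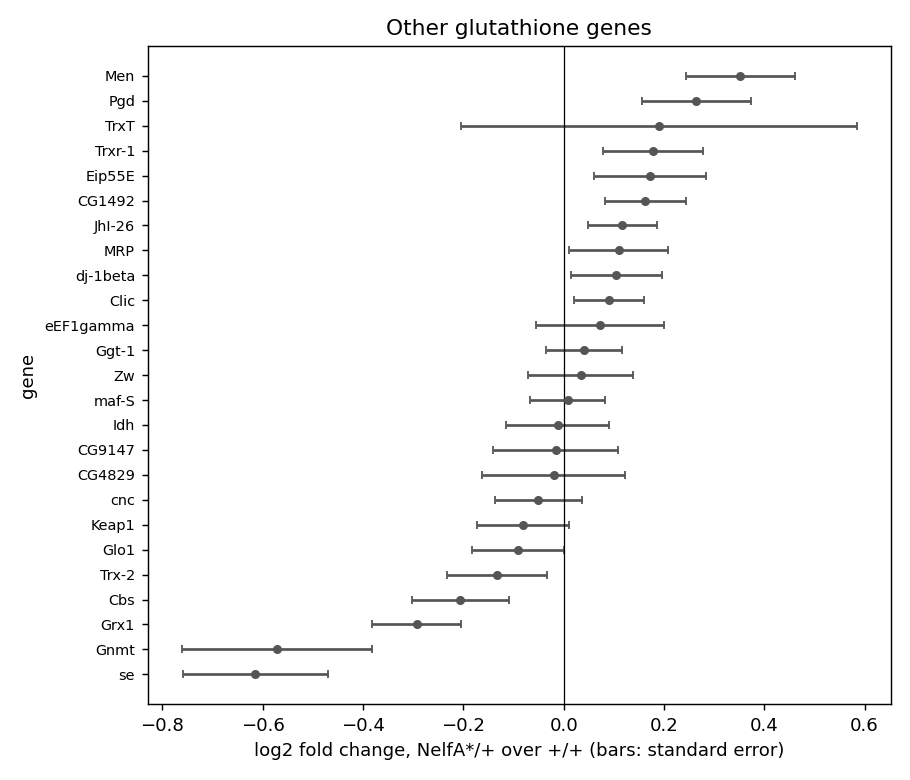
Log2 fold change (NelfA*/+ over +/+) of 25 other glutathione genes with enough counts to test, with standard errors as bars; CG17636, whose raw counts were 189 and 17 against 9 and 3, is left out for scale. The values run from -0.61 for se to 0.35 for Men, and the regulators cnc, Keap1 and maf-S lie near 0.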

How the data were processed

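The authors sequenced polyadenylated RNA from pooled heads, removed adaptors by Trim Galore, used STAR (version 2.5, per the labels) for alignment to BDGP6 and obtained gene counts from HTSeq-count, whose mode and strand setting are not given in the sources used here. The deposited counts are raw whole numbers per gene. The summary lines of HTSeq-count (ambiguous reads were between 7.47% and 8.00% of the reads tallied in each library) were not used as genes. The authors' own DESeq2 comparison (fold changes and p-values) was not used.

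Counts were compared with edgeR 4.0.16 in R 4.3.3 (filterByExpr, TMM, glmQLFit, glmQLFTest; 9609 genes, threshold 0.05, Benjamini-Hochberg adjustment). Standard errors (SE) were obtained as |log2 fold change| over the root of the F statistic. Alternatives were DESeq2 1.42.0, limma-voom (limma 3.58.1), other scalings, filters and dispersions, a replicate block, a threshold of 0.1, and fits that leave out single libraries. Steps were tested on simulated counts. Replicates of a genotype differed by far more than sampling noise (chi-square over its degrees of freedom was 64.6 for NelfA*/+ and 82.6 for +/+), so each library counted as a replicate, and counting error was not used as the measure of precision.

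Coordinates and exon lengths are from Ensembl release 115 on BDGP6. Of 13926 names, 12783 matched by symbol, 1113 by an older symbol and 30 did not. Members, lists and the rule for genes given per library (called in edgeR or DESeq2, most abundant or most changed of a class, Mgstl and synthesis genes; of the other list, the 2 largest changes in each direction) were chosen with earlier results of these data known. Other genes, such as GstE5, GstE9, GstE14, GstD8, GstD9, Idgf5 and the regulators, were named after their values were seen. Promoter and protein sequences were not analysed here.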

Additional observations from a re-analysis of the deposited data

How the results depend on the processing

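The number of genes called among the 40 depended on the test. The main count of 2 (1 higher, 1 lower) became 11 (7 higher, 4 lower) with DESeq2's Wald test, 6 (3 and 3) with robust dispersions, 7 (4 and 3) at an adjusted p below 0.1, and 1 (0 higher, 1 lower) with limma-voom or with no filter on low counts. With at least 10 counts in every library 2 genes were called higher, and with the replicate block 2 were called higher (GstE1 and GstE7) and GstD3 lower. Leaving out each library gave between 0 and 4 calls, with 0 to 2 higher and 0 to 2 lower. No gene was called without +/+ replicate 1, and only GstE7 without +/+ replicate 2. In these fits the lone library of a genotype is assumed to vary like the other genotype. With all 4 libraries, GstE7 and GstD3 were both called under every setting except limma-voom and no filter, which called GstD3 alone. Over all genes edgeR called 180, against 911 for DESeq2, 118 for limma-voom, 82 without the filter, 359 with robust dispersions, 297 with the block and 578 at the relaxed threshold, and between 27 and 425 when a library was left out.

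The replicate numbers are not said to mark a shared batch, and deviations of same-numbered libraries were correlated at -0.14 across 8398 genes. A crossed pairing, added after the data were seen, called 10 of the 40 (5 higher, 5 lower) and 797 genes in all. Fold changes near 0 turned direction. GstD7 was -0.42 in limma-voom, -0.054 with the replicate block and -0.028 with the crossed block. GstE13 was -0.014 and Gclc -0.015 with library size alone. GstO2 was 0.0022 with DESeq2, 0.0022 with its size factors, 0.00046 without the filter and 0.0023 with at least 10 counts. When each library was left out, log2 fold changes ran from -0.028 to 0.25 for GstD4, -0.36 to 0.14 for GstD5, -0.064 to 0.90 for GstD6, -2.16 to 1.01 for GstD7, -0.14 to 0.0075 for GstD10, -0.13 to 0.14 for GstE13, -0.016 to 0.014 for GstO2, -0.24 to 0.11 for GstT2, -0.090 to 0.024 for Mgstl, -0.17 to 0.13 for Gss1 and -0.052 to 0.069 for Gclc. The Theta median ran from -0.24 to 0.041. The other class medians moved by less than the spread between replicates under the settings for which they were computed. Class medians were not computed for DESeq2, limma-voom or robust dispersions. The cause of these changes was not tested.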
